A study of Mus musculus with 8 samples.

Results

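c-Jun peaks whose centre lay in protein-coding sequence were examined in mouse epiblast stem cells (EpiSCs). A peak was counted as a coding-exon peak when its centre fell in the coding part of an exon of a protein-coding gene (GENCODE vM21 basic annotation, mm10) and not between 1000 bp upstream and 100 bp downstream of a protein-coding transcription start site (TSS). This gave 376 coding-exon peaks of the 16166 EpiSC c-Jun peaks, in 358 genes. The centre of 437 peaks lay in coding sequence, and 61 of these were left out because they also lay at a promoter. At the edge of this rule, the peaks in Dguok (fold enrichment 3.95, centre 101 bp downstream of a TSS) and Tmem223 (4.76, 103 bp) were kept, and those in Pank2 (2.85) and Idua (5.99), both at 100 bp, were left out.

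The study used c-Jun ChIP-seq to find where c-Jun binds in primed EpiSCs, and the series also holds c-Jun ChIP-seq of kEpiSCs. EpiSCs were labelled wild type, of strain CBA/CaJ X C57BL/6J, whereas the study's methods give embryos from a 129 and OG2 cross. kEpiSCs are EpiSCs that carry an Oct4-GFP reporter and a Klf4 transgene under G418 selection, and they can be driven back to the naïve state through Klf4. Both lines were grown with Activin A and bFGF, and each is 1 line. There were 2 c-Jun ChIP libraries and 2 input libraries for each line, but a single peak list per line, so no value has a spread between replicates and all intervals and p-values cover counting error only. c-Jun is given as the antibody's target in the antibody field and in the paper, but the ChIP protocol among the labels speaks of H3K27ac. For each peak the list gives a fold enrichment, which sets the ChIP reads at the summit against the background around it, and a −log10 q-value, which ranks the peaks.

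c-Jun is a basic leucine zipper protein that binds DNA as AP-1, a dimer with another Jun protein, a Fos protein or an ATF protein. Dimers of Jun and Fos bind the near-palindrome TGAGTCA or its reverse complement TGACTCA, which together are called the AP-1 site here, while dimers with ATF or CREB proteins prefer the longer cAMP response element (CRE) TGACGTCA. AP-1 is best known from enhancers and promoters. Coding sequence must also spell a protein, so the letters around and within a site are bound by the reading frame, and TGA in frame is a stop codon.

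The sequences of 9 coding-exon peaks that hold an AP-1 site inside the coding sequence are shown first, because they are the plainest cases of a c-Jun site that is also read as protein. Each is 61 bp of the mm10 genome along the coding strand, from the RefSeq copy of the assembly, and capitals mark every AP-1 site in the window.
Dclre1c (chr2:3453260-3453320, plus strand): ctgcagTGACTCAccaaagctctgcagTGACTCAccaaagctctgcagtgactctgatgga
Fbxo3 (chr2:104059971-104060031, plus strand): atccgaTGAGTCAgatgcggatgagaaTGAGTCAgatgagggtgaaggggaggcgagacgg
Reln (chr5:21920420-21920480, minus strand): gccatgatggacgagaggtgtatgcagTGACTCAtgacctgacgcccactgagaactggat
Src (chr2:157458541-157458601, plus strand): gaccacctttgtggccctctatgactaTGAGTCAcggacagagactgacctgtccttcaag
Lrp6 (chr6:134450909-134450969, minus strand): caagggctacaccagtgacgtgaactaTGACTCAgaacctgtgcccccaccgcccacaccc
Macf1 (chr4:123527052-123527112, minus strand): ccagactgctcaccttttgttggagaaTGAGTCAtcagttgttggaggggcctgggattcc
Vcl (chr14:20985645-20985705, plus strand): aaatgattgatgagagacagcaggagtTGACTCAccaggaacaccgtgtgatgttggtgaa
Arid1a (chr4:133680394-133680454, minus strand): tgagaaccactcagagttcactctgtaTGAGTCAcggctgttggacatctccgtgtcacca
Esrrb (chr12:86518872-86518932, plus strand): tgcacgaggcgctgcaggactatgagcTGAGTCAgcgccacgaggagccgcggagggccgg
Dclre1c (Artemis, a nuclease of DNA joining) and Fbxo3 (a ubiquitin ligase subunit) each carried 2 AP-1 sites in this stretch, and in Dclre1c the surrounding letters are repeated as well. The Dclre1c sites lay at the summit but outside the central 200 bp of the peak, so this peak is not among those counted with a site below. Reln encodes the secreted guidance protein reelin, Src a tyrosine kinase, Lrp6 a co-receptor of WNT signalling, Macf1 a linker of actin and microtubules, Vcl the focal adhesion protein vinculin, Arid1a a subunit of the SWI/SNF chromatin remodeller, and Esrrb a nuclear receptor of naïve pluripotency. The next 3 peaks have their site at the border between exon and intron, on the splice donor.
Hspg2 (chr4:137501169-137501229, plus strand): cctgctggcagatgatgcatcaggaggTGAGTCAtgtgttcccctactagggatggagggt
Aldh5a1 (chr13:24918466-24918526, minus strand): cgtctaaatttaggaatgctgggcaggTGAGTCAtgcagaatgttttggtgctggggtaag
Nfic (chr10:81409576-81409636, minus strand): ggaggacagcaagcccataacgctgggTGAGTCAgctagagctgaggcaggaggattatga
In Hspg2, which encodes the basement membrane proteoglycan perlecan, Aldh5a1, an enzyme of GABA breakdown, and Nfic, a transcription factor, the intron begins with the letter g before the capitals. The last 5 peaks hold no AP-1 site. They are shown because they were among the highest peaks, and capitals mark the CRE in Csf2ra, TGACGCA or its reverse complement in Nav1, Rasip1 and Tmprss9, and the summit base alone in Jun.
Nav1 (chr1:135472260-135472320, minus strand): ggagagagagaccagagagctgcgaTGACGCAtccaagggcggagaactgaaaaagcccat
Rasip1 (chr7:45638763-45638823, plus strand): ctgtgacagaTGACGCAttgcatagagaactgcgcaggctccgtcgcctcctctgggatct
Tmprss9 (chr10:80898027-80898087, plus strand): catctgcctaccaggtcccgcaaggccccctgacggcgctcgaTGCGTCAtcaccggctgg
Csf2ra (chr19:61226729-61226789, minus strand): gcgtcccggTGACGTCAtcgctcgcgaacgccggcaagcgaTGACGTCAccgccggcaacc
Jun (chr4:95051035-95051095, minus strand): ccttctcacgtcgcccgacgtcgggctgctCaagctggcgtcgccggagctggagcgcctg
Nav1 is a microtubule-associated protein, Rasip1 a Ras-interacting protein of blood vessels, Tmprss9 a membrane serine protease and Csf2ra a cytokine receptor subunit, whose summit and printed stretch lay in the intron beside the coding exon.

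Most coding-exon peaks, like most peaks of the list, rested on few reads. They had a median fold enrichment of 5.83 (quartiles 4.78 and 6.88, range 1.57 to 19.1) and a median width of 169 bp (quartiles 129 and 263 bp), and the medians of the whole list were 6.16 and 190 bp. The fold and the p-value of a peak together give the reads at its summit, with a median of 9 (quartiles 7 and 12) against 10 in the whole list. Of the 376 peaks, 253 rested on 10 reads or fewer, as did 8888 of all 16166. They lay through the whole list, with 22 in its highest decile by −log10 q and 45 in its lowest, and the first of them stood at rank 82 of 16166. Coding sequence made up a median of 77.0% of a peak, and 130 peaks were coding from end to end. The summit lay in a coding exon for 297 peaks, in an intron for 65, in a UTR for 9 and at a promoter for 5.

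The coding-exon peak with the highest −log10 q was in Dnah8. This gene, which encodes an axonemal dynein heavy chain of the sperm tail, had a peak of 1028 bp over coding exon 9 of 92, with a fold enrichment of 19.1 in EpiSCs and 13.5 in kEpiSCs. The peak reached well into the introns, since only 21.6% of it was coding. The folds are those of separately called lists and are given side by side without a comparison. Other high peaks were in Jun (15.9 and 7.42), Hspg2 (fold 17.1 in EpiSCs and 14.1 in kEpiSCs), Dclre1c (16.4 and 5.93), Myo15b (15.7 and 8.64), Nav1 (15.7 and 7.15), Fbxo3 (13.3 and 7.86), Aldh5a1 (14.4 and 8.49), Reln (14.4 and 11.6) and Inpp5a (13.0 and 12.2). All of the 12 highest coding-exon peaks overlapped a kEpiSC peak, as did 28.3% of all EpiSC peaks. These 12 stood in the highest decile of the list, where 79.6% of intronic and 81.7% of intergenic peaks overlapped one. An AP-1 site lay in the central 200 bp of 4 of the 12, and of 45.9% of all EpiSC peaks. In the highest decile it lay in 65.3% of intronic and 66.2% of intergenic peaks.

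**Figure D1:**
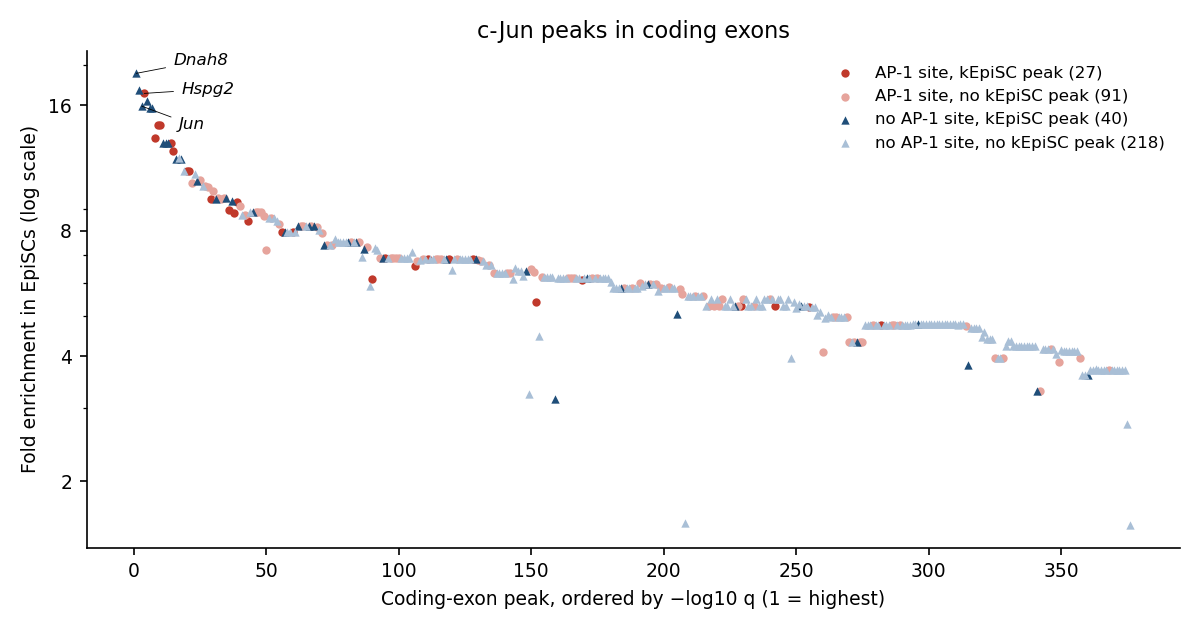
Fold enrichment in EpiSCs (y axis, log scale) of the 376 coding-exon peaks, ordered by −log10 q (x axis). Red circles hold an AP-1 site in the central 200 bp and blue triangles do not, and dark symbols overlap a kEpiSC peak. The 4 points with folds under 4 among the first 250 peaks have a background of at least 5.61 times the median of the list.

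The peak in Jun itself followed the coding sequence almost base for base. Jun has no introns, and its coding sequence spans 1002 bp on the minus strand of chromosome 4, from 95050270 to 95051271. The EpiSC peak ran from 95050268 to 95051293, 1026 bp, and so covered 100% of the coding sequence with 22 bp beyond the first coding base and 2 bp beyond the last. Its fold enrichment was 15.9, on 28 reads at the summit. The kEpiSC peak ran from 95050277 to 95051272, 996 bp, and covered 99.3% of the coding sequence, beginning 1 bp before the start codon, with a fold of 7.42. The summits differed, at base 207 of the coding sequence in EpiSCs and base 405 in kEpiSCs. The central 200 bp had a GC content of 73.0%, and the peak held no AP-1 site. A separate peak lay at the Jun promoter in both lines (fold 8.94 in EpiSCs and 7.82 in kEpiSCs). Of 104 coding-exon peaks in exons with at least 500 coding bases, Jun was the only one whose peak covered 80% or more of the coding part, and the next covered 58.1%. The cause of this match of borders was not tested.

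**Figure D2:**
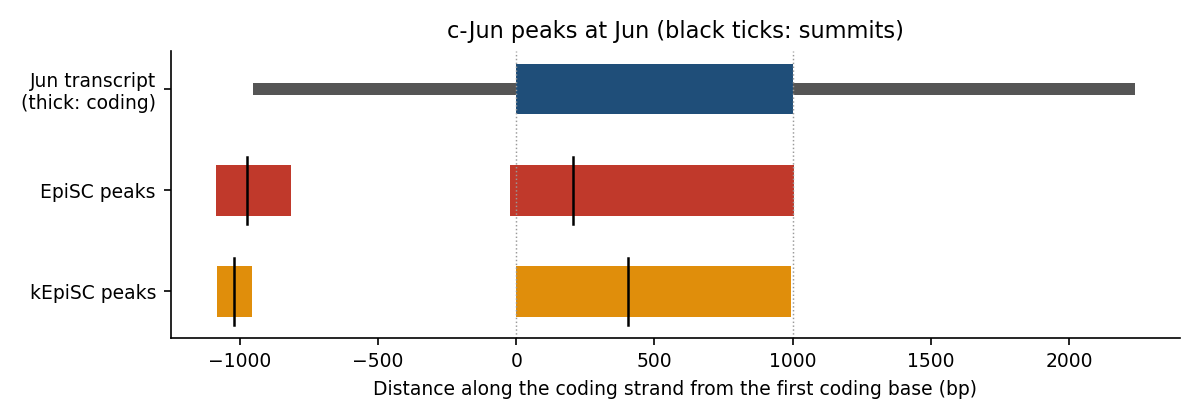
Peaks at Jun, with distance along the coding strand from the first coding base on the x axis. Bars are the transcript (thick where coding), the EpiSC peaks and the kEpiSC peaks, black ticks are summits and dotted lines mark the ends of the coding sequence. In both lines the larger peak ends within 22 bp of both dotted lines.

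The AP-1 site was found less often in coding-exon peaks than in intronic or intergenic peaks. Of 376 coding-exon peaks, 118 held it within their central 200 bp (31.4%, 95% Wilson interval 26.9 to 36.2%), against 45.9% of all EpiSC peaks. The share was 50.0% in intronic peaks (48.9 to 51.2%, 6885 peaks), 49.6% in intergenic peaks (48.4 to 50.7%, 7036 peaks) and 15.5% in promoter peaks (13.7 to 17.4%, 1539 peaks). UTR peaks, the other peaks in exons, had 38.8% (33.7 to 44.1%, 330 peaks). Their interval overlaps that of coding-exon peaks, and they were not among the tests. Coding-exon peaks thus held fewer sites than intronic peaks (odds ratio 0.457, adjusted p = 4.6e-12) and intergenic peaks (0.465, adjusted p = 1.15e-11), and more than promoter peaks (2.50, adjusted p = 3.58e-11; two-sided Fisher's exact tests, adjusted over 12 tests by Benjamini-Hochberg). In coding sequence at large the site was rarer: it lay in 2.65% of 204146 windows of 200 bp centred on every coding exon, and in 3.31% of windows centred on introns.

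The GC content moved with the site. The median was 56.0% in coding-exon peaks, 49.5% in intronic and intergenic peaks and 63.0% in promoter peaks. Coding exons are also richer in GC apart from peaks. Windows of 200 bp centred on them had a mean GC content of 49.6%, and those centred on introns 45.2%. The tests of GC content do not take this into account. More coding-exon peaks than intronic peaks lay above the median of the list (78.7% against 45.7%, odds ratio 4.40, adjusted p = 1.29e-36, Fisher's exact test), and fewer than promoter peaks (86.4%, odds ratio 0.581, adjusted p = 0.000348), although this turned to 1.11 (adjusted p = 0.535) with promoters taken from 5000 bp upstream to 1000 bp downstream. Of the coding-exon peaks with at least 65% GC, 4 of 73 held an AP-1 site (5.48%), and of those with 45 to 50% GC 26 of 51 (51.0%). Among peaks of 50 to 60% GC alone, the share was 43.6% in coding exons, 52.6% in introns and 50.7% between genes, and the difference no longer passed the threshold in Fisher's exact test (adjusted p = 0.0551 and 0.132). The difference from promoters did (25.3%, adjusted p = 0.000247, Fisher's exact test). From 60 to 65% GC the shares were 13.3% in coding exons, 32.8% in introns, 42.1% between genes and 11.1% at promoters. From 65% GC upwards they were 5.48%, 20.0%, 21.6% and 7.12%, and from 45 to 50% GC 51.0%, 54.4%, 52.3% and 30.5%. The part of base composition in the lower share was not tested beyond the peaks of 50 to 60% GC.

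**Figure D3:**
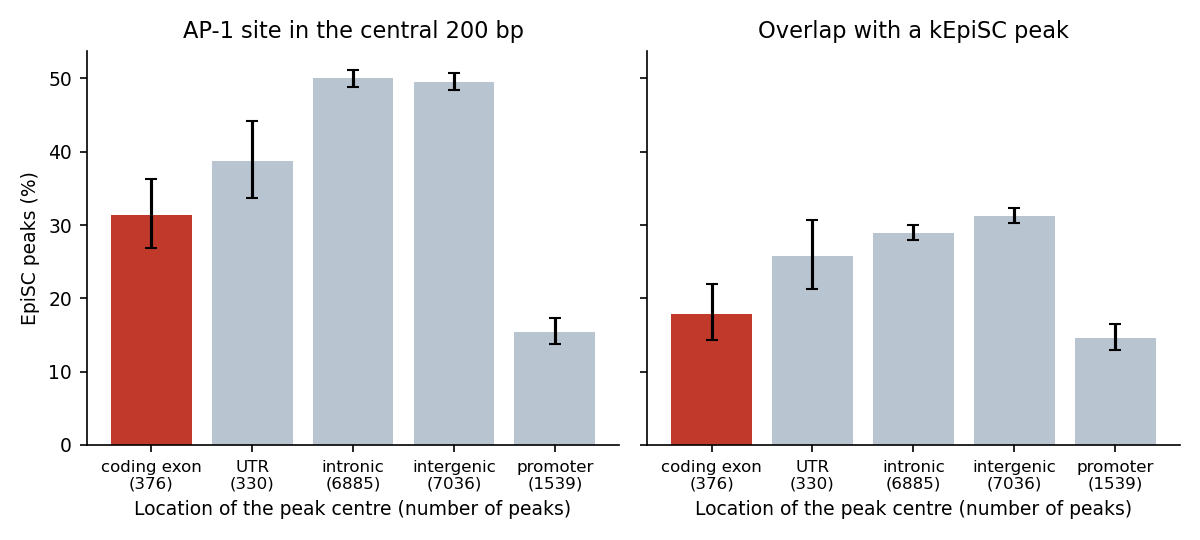
Share of EpiSC peaks in each location with an AP-1 site in the central 200 bp (left) or overlapping a kEpiSC peak (right), in percent, with 95% Wilson intervals as bars and the number of peaks under each name. In both panels coding-exon peaks (red) lie below intronic and intergenic peaks.

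Where a coding-exon peak had a site in its central 200 bp, the nearest site lay a median of 28.0 bp from the summit (quartiles 12 and 51.8 bp). Within 25 bp lay 56 of 118 sites (47.5%). The 200 bp and the choice of the nearest site bound this distance, and no expected distance was computed. Counted over a wider stretch, there were 7.98 sites per 100 peaks from −10 to 9 bp of the summit, and 1.60 from 90 to 109 bp. The peaks with a site had a median fold of 6.68 and a median GC content of 53.5%, and those without had 5.47 and 58.5%. In 70 of the 118 peaks the site nearest to the summit was inside a coding exon, in 41 it lay in the neighbouring intron and in 7 in a UTR. More than 1 site was present in 11 peaks. Over the whole peak 142 coding-exon peaks (37.8%) held a site.

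**Figure D4:**
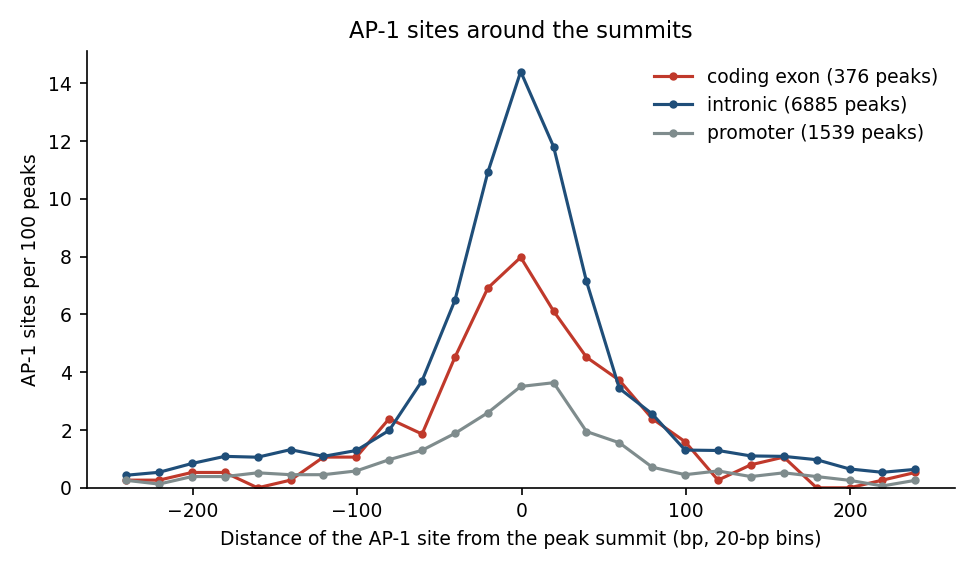
AP-1 sites per 100 peaks (y axis) in 20-bp bins of distance from the summit (x axis), for coding-exon, intronic and promoter peaks. All 3 lines are highest within 20 bp of the summit, where the coding-exon line lies between the intronic and the promoter line.

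A group of the sites outside coding sequence lay on splice donors. Introns usually begin with GT followed by letters such as GAGT, so a donor that continues with CA spells an AP-1 site from base 2 to base 8 of the intron. In 13 of the 118 peaks (11%) the nearest site was such a donor, among them Hspg2, Aldh5a1, Ptdss1 (fold 13.0, a phosphatidylserine synthase), Letm1 (11.2, a mitochondrial inner membrane protein), Nfic (9.98), Nvl (9.53) and Dock1 (8.89). Of 198463 donor positions of protein-coding transcripts, 1061 (0.535%) read GTGAGTCA. A c-Jun peak covered 43 of these sites (4.05%, 3.02 to 5.41%), against 4730 of the 158666 other intronic sites (2.98%, 2.90 to 3.07%). The donor count was made after the sequences were seen and no test was run on it. All of these donor sites have G, a purine, before the site. The share covered also moved with the bases beside the site, as given below, and the 2 features were not separated.

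Inside the coding sequence the site was read in 2 of the 3 possible frames. Of 3932 AP-1 sites that lay whole in coding exons outside promoters with 1 reading frame, 0 began at the first position of a codon, where TGA would end the protein. In c-Jun peaks 40 of 101 sites (39.6%, 30.6 to 49.4%) began at the second position of a codon and 61 (60.4%, 50.6 to 69.4%) at the third. Outside peaks these shares were 46.3% (44.8 to 47.9%) and 53.7% (52.1 to 55.2%) of 3831 sites, and the difference did not pass the test (p = 0.19, odds ratio 1.32, by a two-sided exact test after Fisher). A site at the third position spells glutamate and serine as TGAGTCA, as in Src, Macf1, Arid1a and Fbxo3, or aspartate and serine as TGACTCA, as in Lrp6 and Dclre1c. In peaks these were 28 and 33 sites. A site at the second position places a serine codon (TGAGTCA, 17 sites) or a threonine codon (TGACTCA, 23 sites) in the middle, as in Esrrb for serine and in Vcl and Reln for threonine.

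c-Jun peaks covered 101 of 3937 coding AP-1 sites (2.57%, 2.12 to 3.11%). This share was not distinguishable from that of intronic sites (2.99%, 4767 of 159646, odds ratio 0.855, adjusted p = 0.129, Fisher's exact test) and was above that of intergenic sites (1.96%, 5070 of 259219, odds ratio 1.32, adjusted p = 0.0182). With peaks of −log10 q of at least 5 alone, the second difference no longer passed (odds ratio 1.17, adjusted p = 0.211, Fisher's exact test). Sites where reads cannot be mapped uniquely were included in every location, although the peaks rest on uniquely mapped reads. The part of this in the shares was not tested. Sites were rarer in coding exons, at 113 per Mb against 173 per Mb in introns. The bases beside the site moved with the share covered. AP-1 sites with a purine before and a pyrimidine after were covered most often, 34 of 613 in coding exons (5.55%, 4.00 to 7.65%), those with 1 of the 2 less often (53 of 2014, 2.63%, 2.02 to 3.43%) and those with neither least (14 of 1309, 1.07%, 0.638 to 1.79%). In introns the 3 shares were 5.05%, 2.92% and 1.41%. These classes were chosen after the data were seen and are given without a test.

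Relatives of the AP-1 site that contain a CpG had higher shares in coding-exon peaks than in windows centred on coding exons. TGACGCA, in which 1 base of the AP-1 site is changed, was found on either strand in 21 of all 376 coding-exon peaks (5.59%), in 2.34% of intronic peaks, in 5.85% of promoter peaks and in 0.626% of windows centred on coding exons. In 17 of these 21 peaks it lay within 50 bp of the summit, with a median distance of 17.0 bp. The CRE TGACGTCA was found in 13 coding-exon peaks (3.46%), 1.57% of intronic peaks, 7.28% of promoter peaks and 0.262% of coding windows. TGACTCG was found in 17 (4.52%) and TGAGTCG in 10 (2.66%), against 2.34% and 1.62% of promoter peaks and 0.945% and 0.807% of coding windows. In windows and peaks with at least 55% GC, TGACGCA stood at 6.33% of 221 coding-exon peaks and 0.792% of 62627 coding windows, the CRE at 3.17% and 0.249%, TGAGTCG at 2.71% and 1.10%, and TGACTCG at 2.26% and 1.21%. In this order the shares of peaks rest on 14, 7, 6 and 5 peaks. Of the 258 peaks without an AP-1 site, 46 (17.8%) held 1 of these 4 words, and of the 3440 intronic peaks without one 9.71%. Among the 46 were Dnah8, Nav1, Rasip1, Csf2ra with 2 full CREs beside its summit, Tmprss9, Uba2 (fold 9.58, a subunit of the SUMO E1 enzyme) and Kmt2e (6.16, a chromatin protein). The higher share than in coding windows was not particular to words with a CpG. TGATTCA and TGACTAA, also AP-1 sites with 1 base changed, had it too, TGACTAA on few peaks. TGATTCA was in 5.05% of coding-exon peaks and 1.98% of coding windows, and at 55% GC or more in 2.71% and 0.735%. TGACTAA was in 2.13% of coding-exon peaks, and at 55% GC or more in 0.905%, against 0.422% of such coding windows. Intronic peaks held TGATTCA (7.47%) and TGACTAA (8.54%) more often than coding-exon peaks, and the 4 CpG words less often. These words were picked after the sequences had been read, so the shares are a description without a test. A match does not show binding by c-Jun to those letters.

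**Figure D5:**
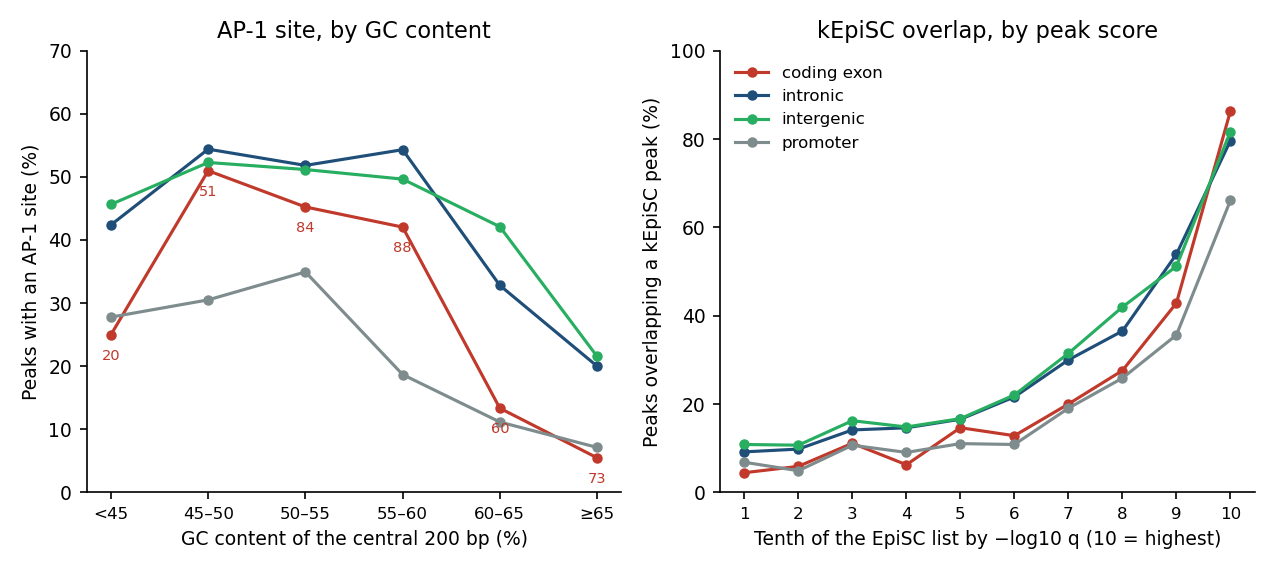
Left, share of peaks with an AP-1 site (y axis, %) by GC content of the central 200 bp (x axis), with the number of coding-exon peaks in red. Right, share of peaks overlapping a kEpiSC peak (y axis, %) by decile of the list (x axis, 10 is the highest −log10 q). The coding-exon line falls steeply above 60% GC on the left and rises with the score on the right.

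Fewer coding-exon peaks than intronic or intergenic peaks were shared with kEpiSCs. A kEpiSC peak overlapped 67 of 376 coding-exon peaks by at least 1 bp (17.8%, 14.3 to 22.0%), against 28.3% of all EpiSC peaks. In 7 of the 67, Inpp5a, Csf2ra and Esrrb among them, the kEpiSC peak did not reach the coding part of the exon. The shares were 29.0% in introns (odds ratio 0.532, adjusted p = 2.26e-06), 31.3% between genes (0.476, adjusted p = 2.04e-08) and 14.6% at promoters (1.27, adjusted p = 0.128; Fisher's exact tests). The odds against promoters did not pass the threshold, and passed it in the same test without the peaks of high background (1.43, adjusted p = 0.0331, Fisher's exact test). The score moved with the overlap: in the highest decile of the list 19 of 22 coding-exon peaks were shared (86.4%) and 79.6% of intronic peaks, and in the lowest decile 2 of 45 (4.44%) and 9.16%. Fold enrichment was above the median of the list for 40.4% of coding-exon peaks, 51.8% of intronic peaks (adjusted p = 2.26e-05) and 32.2% of promoter peaks (adjusted p = 0.00311, Fisher's exact tests). Among peaks with −log10 q of at least 5, the shares overlapping a kEpiSC peak were 28.4% of 190 coding-exon peaks and 39.4% of 4282 intronic peaks (adjusted p = 0.00347), while the difference in fold from intronic peaks did not pass there (adjusted p = 0.256, Fisher's exact tests).

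The 67 shared peaks had a median fold of 7.94 in EpiSCs, against 5.58 for the 309 others. An AP-1 site was present in 27 of the 67 (40.3%) and in 91 of the 309 (29.4%). The highest kEpiSC folds at coding-exon peaks were at Kctd13 (14.9, an adaptor of a ubiquitin ligase), Hspg2 (14.1), Dnah8 (13.5), Inpp5a (12.2, an inositol phosphatase) and Tmprss9 (12.1). The fold of the Kctd13 peak in the EpiSC list was 6.59. The highest coding-exon peaks with no kEpiSC peak within 50 kb were in Rasip1 (12), Fam13b (10.4), Fn1 (10.9, fibronectin), Htt (10.2, huntingtin) and Nfic (9.98). A missing kEpiSC peak may lie below the threshold of a list that held 6032 peaks in all.

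Genes with long coding sequences carried coding-exon peaks more often. Of 21924 protein-coding genes, 360 (1.64%) had a coding-exon peak, counting 2 peaks that lay in 2 genes at once. The share was 4.84% (4.01 to 5.82%) in the decile of genes with the longest coding sequence and 0.456% (0.248 to 0.837%) in the shortest decile. Per Mb of coding sequence the numbers of genes with a peak were 9.41 and 13.8, the latter from 10 genes, and those of the other 8 deciles lay between 6.86 and 14.4 without an order. Coding exons as a whole held 10.8 peaks per Mb, introns 7.48, intergenic sequence 4.33 and promoters 49.1. These lengths include sequence to which reads cannot be mapped uniquely, and the part of this in the densities was not tested. First coding exons held 14.6% of the peaks (11.4 to 18.6%) and 8.55% of coding bases, internal exons 61.2% and 67.5%, last exons 19.1% and 14.6%, and the exons of genes with 1 coding exon 5.05% and 9.29%. The kind of exon was taken from the longest coding transcript that held the peak centre. Coding bases were counted in the longest transcript of each gene alone, so exons outside it count among the peaks only.

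Coding-exon peaks were counted in 18 gene lists. Of 35 genes of integrins, laminins, collagens and other matrix proteins, 6 had a coding-exon peak (17.1%, against 1.64% of all genes), among them Hspg2, Fn1 and Col7a1. Their median coding length was 4392 bp, against 1170 bp for all genes. Of 40 giant structural genes with a median of 14420 bp, 5 had a peak (12.5%), namely Dnah8, Macf1, Dst, Fat1 and Birc6. Signalling receptors had 2 of 50 (Lrp6 and the ephrin receptor gene Ephb4, fold 7.53), actin and focal adhesion genes 2 of 48 (Src and Vcl), chromatin regulators 1 of 50 (Arid1a), Zfp zinc finger genes 12 of 394 with Zfp169 the highest (7.41), protocadherins 1 of 68 and solute carriers 2 of 371. There were 0 among 1092 olfactory receptor genes, 79 ribosomal protein genes, 40 junction genes, 34 chaperone genes and 33 apoptosis genes. The lists were not tested. Coding length differed between them, and their shares did not follow it throughout: chromatin regulators, with a median of 4827 bp, had 2%.

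Of the pluripotency genes, 1 of 28 naïve genes and 1 of 29 primed epiblast genes had a coding-exon peak. Of 13 core genes, including Pou5f1, Nanog and Sox2, 0 had such a peak. The share over all protein-coding genes was 1.64%, and counts of 0 or 1 cannot tell these lists apart. The naïve gene was Esrrb, with a fold of 5.29 on 9 reads over its last coding exon, and its AP-1 site lay 3 bp from the summit inside the coding sequence. The kEpiSC peak that overlapped it (6.31) ended before the coding part of this exon and did not hold the site. The primed gene was Sall3, a zinc finger factor, with a fold of 6.16 on 8 reads, no AP-1 site and no kEpiSC peak within 50 kb. Of 30 AP-1 and bZIP factors, Jun and Atf1 had a coding-exon peak, and the Atf1 peak was small (4.66, 6 reads). Of 35 immediate early and stress genes they were Jun and the kinase gene Sgk1 (3.70, 6 reads). Fat1, an atypical cadherin gene, had a peak of 5.73 on 10 reads in coding exon 10 of 29.

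Several coding-exon peaks lay in 14 genes. C77080 had 4, in coding exons 2, 4, 5 and 6 of 7, with folds of 8.05, 6.61, 6.88 and 5.58 and 1 AP-1 site among the 4 central windows. A further 4 EpiSC peaks lay in its introns, and none of its coding-exon peaks overlapped a kEpiSC peak. Ttll1, a tubulin glutamylase subunit, had 3 in coding exons 4, 5 and 7 of 9 (6.41, 4.16 and 6.16) and 3 in introns. Wdfy3, an adaptor of selective autophagy, had 3 in coding exons 57, 50 and 36 of 65 (6.16, 4.76 and 4.79) and 8 in introns. Dnah8 had a second coding-exon peak in exon 7 (6.88), Fn1 in exon 1 (3.70), Macf1 in exon 57 (6.41), and Utrn, which encodes utrophin, had 10.3 in exon 28 and 6.84 in exon 16. Over all 358 genes, 143 (39.9%) also had an intronic peak and 205 (57.3%) had no other peak in the gene. The genes had a median span of 31 kb, against 16.6 kb for all protein-coding genes. How many of all protein-coding genes had an intronic peak was not counted, so it is not known whether 39.9% is high.

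Some coding-exon peaks stood on a high background. In 12 of them the background solved from the fold and the p-value was over 3 times the median of the list. The highest were in the predicted genes Gm10800 (157 times, fold 1.59) and Gm10801 (75.7 times, fold 1.57) and in Tcf19 (15.4 times, fold 3.15). Reads from repeated copies were not examined, and without these peaks the shares of coding-exon peaks with an AP-1 site (31.9%) and with a kEpiSC peak (17.6%) moved by less than their intervals. Repeats masked in the assembly made up a mean of 4.29% of the central 200 bp of coding-exon peaks, against 11.6% in introns.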

How the data were processed

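Reads were aligned by the authors to mm10 (Bowtie2), reduced to uniquely mapped ones and passed to MACS2 with the input as control. The sources used here give no tool versions. They deposited 1 peak list per line (16166 peaks in EpiSCs, 6032 in kEpiSCs), taken to pool both ChIP libraries of the line, although each list is named with the first ChIP replicate and may rest on it alone. Library depths were not analysed here. The deposited columns hold a score (10 times −log10 q, without decimals), a fold enrichment (the ratio of ChIP to local background reads, each with 1 added), the −log10 p-value, the −log10 q-value, and how far from its start each peak has its summit.

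Peak centres were placed in GENCODE vM21 basic gene models in the order promoter, coding exon, UTR, intron, intergenic. Sequence came from the RefSeq copy of GRCm38.p6, the assembly of mm10. The fold and p-value of each peak were solved for the background and for a whole number of summit reads. For 100% of peaks the deposited −log10 p was met within 0.01. AP-1 sites, GC content and CpGs were counted in the central 200 bp. Shares have 95% Wilson intervals. Coding-exon peaks were compared with intronic, intergenic and promoter peaks in 4 measures by two-sided Fisher's exact tests with Benjamini-Hochberg adjustment over the 12 tests, and coding sites with intronic and intergenic sites over 2. Peaks are not replicates, neighbouring peaks are not independent, and the p-values describe this list and not the experiment.

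The members, the 18 gene lists and the tests were chosen with earlier results of these data known. The text names the genes of the 12 highest coding-exon peaks, up to 8 genes with several peaks, up to 3 genes of each list, the 5 highest peaks without an AP-1 site, the 5 widest, the 5 with the highest kEpiSC fold, the 5 highest without a kEpiSC peak within 50 kb, and genes the paper names. Other names (peaks on splice donors, peaks with a CpG word, peaks of high background, peaks at the edge of the rule, and the remaining genes of the matrix and giant lists) were chosen after their values were seen, as were the donor, flank and CpG word counts. Some genes that this rule names are not reported here. The calculations were tested on simulated gene models and peaks. Tests were run in scipy 1.17.1 under Python 3.11.15, tables in pandas 2.3.3 and numpy 2.4.6, sequence access in pysam 0.24.0 and figures in matplotlib 3.10.9.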

Additional observations from a re-analysis of the deposited data

How the results depend on the processing

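No paired analysis was possible because the deposited lists hold no replicate values. Leaving out a replicate was likewise not possible. Of 108 alternatives, 95 kept the direction and the side of the threshold. With promoters taken from 5000 bp upstream to 1000 bp downstream, the odds ratios against promoter peaks in Fisher's exact test became 1.24 for high fold enrichment (adjusted p = 0.111), 1.11 for high GC content (0.535) and 0.984 for kEpiSC overlap (1), the last 2 with the direction turned. With coding-exon peaks of which at least 50% was coding they were 1.29 for fold (0.0536) and 0.995 for kEpiSC overlap (1). With −log10 q of at least 5, 190 coding-exon peaks were left, and the odds ratios for high fold became 0.800 against introns (0.256), 0.818 against intergenic peaks (0.279) and 1.49 against promoters (0.0647). The odds ratio of coding against intergenic sites became 1.17 (0.211). Among peaks of 50 to 60% GC, an alternative chosen after seeing the data, the odds ratios for the AP-1 site were 0.697 against introns (0.0551) and 0.751 against intergenic peaks (0.132). Without peaks over 3 times the median background, also chosen afterwards, that for kEpiSC overlap against promoters was 1.43 (0.0331). All p-values are adjusted, from Fisher's exact test. The difference in AP-1 sites between coding-exon and intronic peaks kept its direction under every alternative run. Most coding-exon peaks rest on few reads, and a peak missing from either list may lie below its threshold.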

Other observations

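kEpiSCs had 90 coding-exon peaks of 6032 (1.49%). Of these, 54 overlapped an EpiSC peak (60%, 95% Wilson interval 49.7 to 69.5%), against 77.5% of intronic kEpiSC peaks. The EpiSC peak was centred in a coding exon for 41 of the 54 and in an intron for 11. The highest kEpiSC coding-exon peak was in the RNA helicase gene Dhx37 (fold 14.9), where the overlapping EpiSC peak (18.5) was centred in an intron. The highest without an EpiSC peak was in Mindy1, a deubiquitinase gene (8.84, with an AP-1 site), with the nearest EpiSC peak 1762 bp away. The AP-1 site was present in 28 of the 90 (31.1%, 22.5 to 41.3%), against 61.1% of intronic kEpiSC peaks. The 61 EpiSC peaks with a coding centre that were left out at promoters had a median fold of 4.68 and a median GC content of 65.5%, and 4 of them held an AP-1 site. Peaks of at least 500 bp made up 3.99% of coding-exon peaks (15 peaks) and 5.13% of intronic peaks, and an AP-1 site was present anywhere in 8 of the 15. These genes and counts were picked after their values were seen and no test was run on them.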
